A study of Canis lupus familiaris with 7 samples.

Results

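Genes of the interferon response and of antigen presentation were examined in 7 primary canine osteosarcomas, tumours of bone, measured on 1-colour arrays with 1 array for each tumour. A probe was taken when its gene name in the files was one of 39 listed names or began with DLA or HLA-D, the start of the names of dog leukocyte antigen genes. This gave 76 probes of 41 genes among 43603 probes in all (11115 named genes had a tested probe), with 39 probes of 26 interferon-induced genes, 18 probes of 8 class I genes and 19 probes of 7 class II genes. Another 3 probes had the letters DLA in a gene name, DLAT, that is no leukocyte antigen gene, and were set aside. Of the listed names, DDX58, IFI6, IFIT3, IFITM3, IRF7, TAP1 and CD74 did not occur as a gene name and were not analysed here. Probes well above background on 3 or more arrays were tested, which kept 74 of the 76. The exceptions, 1 probe of IFI44 and 1 of HLA-DOB, belonged to genes with another probe that passed, so that every one of the 41 genes has a value. Of these genes, 37 were well above background on all 7 arrays.

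The deleted group held 4 tumours labelled as DLG2 deleted, and the wild-type group held 3. Deleted tumours 1 to 4 came from a German Shepherd and Collie cross, a Rottweiler cross, a Greyhound and a Great Pyrenees, aged 8, 9, 6 and 7 years. Wild-type tumours 1 to 3 came from a Boxer, a Labrador Retriever cross and a Bull Mastiff, aged 12, 10 and 8 years. The sex label was MC for deleted tumours 1 and 3 and wild-type tumour 3, and FS for the others. No treatment is given in the labels, and the extent of the deletion and the number of copies lost are not given in them either. Each sample was a piece of tumour tissue, which can hold blood, vessel and immune cells beside the tumour cells. In such material fewer cells of a type and less RNA per cell cannot be told apart. The 5 osteoblast markers with a tested probe (ALPL, BGLAP, COL1A1, COL1A2 and RUNX2) were well above background in all 7 tumours. The only probe of DLG2 (A_11_P068516) averaged 10.79 ± 0.47 (SD, n = 4) in the deleted and 11.56 ± 0.58 (SD, n = 3) in the wild-type group on the log2 scale, and the groups overlapped (limma adjusted p = 0.711). The arrays lay on 5 slides, of which one held deleted tumours 2 and 3 and wild-type tumour 2, and their images were read in 2 feature extraction sessions. Session 1 took these 3 arrays and that of deleted tumour 4, and session 2 the rest. Wild-type tumours 1 and 2 had unusually similar arrays (Pearson r of 0.987 over probes, against at most 0.966 for the other 20 pairs), although the labels give different dogs.

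Interferons are secreted signals that cells release on meeting viral nucleic acid. They act through receptors, the kinases JAK1, JAK2 and TYK2 and transcription factors such as STAT2 and IRF9, and switch on a large set of genes with antiviral products. Interferon gamma, made by T and NK cells, also raises the genes of antigen presentation. Class I molecules, a heavy chain bound to B2M, show peptides cut by the proteasome to CD8 T cells, and nearly every nucleated cell has them. Class II molecules, made under the transactivator CIITA, show peptides to CD4 T cells and mark mainly B cells, macrophages and dendritic cells.

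The 60-base probes on which the results turn are shown here 5′ to 3′, with positions on the canFam2 build as the files give them. The first 4 belong to MX1 (chr31:38252743-38252802, plus strand), IDO1 (chr16:28345680-28345739, minus strand), DLA-79 (chr18:44177656-44177715, plus strand) and DLA-12 (chr12:3936927-3936986, plus strand). They stand for the interferon pattern, for the genes whose groups of tumours did not overlap, and for a probe that differed from the other probes of its gene.
MX1 A_11_P051206: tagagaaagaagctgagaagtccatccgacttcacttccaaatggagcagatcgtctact
IDO1 A_11_P078216: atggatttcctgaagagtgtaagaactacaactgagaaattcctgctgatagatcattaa
DLA-79 A_11_P0000020242: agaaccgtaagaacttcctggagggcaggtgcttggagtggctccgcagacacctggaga
DLA-12 A_11_P187283: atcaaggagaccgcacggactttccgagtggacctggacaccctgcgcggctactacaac

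The next probes belong to PSMB9 (chr12:5441275-5441334, plus strand) and HLA-DQB1, and are shown because both genes had a probe that stood far apart in the same pair of tumours. The HLA-DQB1 probes lie, in the order printed, at chr12:5311146-5311205, chr12:5311238-5311297, chr12:5252410-5252465 and chr12:5310847-5310906, all on the minus strand. Capitals in PSMB9 mark the 48 bases shared with its second probe, A_11_P0000020648, and capitals in HLA-DQB1 mark the 53 bases that A_11_P054896 and A_11_P054901 share. The listed position of A_11_P054901 spans fewer bases than the probe itself. The positions of the HLA-DQB1 probes fall in 2 stretches of the build. The placement of probes relative to exons was not analysed here.
PSMB9 A_11_P050636: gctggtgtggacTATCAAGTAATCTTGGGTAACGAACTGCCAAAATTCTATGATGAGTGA
HLA-DQB1 A_11_P0000020226: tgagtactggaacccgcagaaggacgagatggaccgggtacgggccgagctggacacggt
HLA-DQB1 A_11_P054896: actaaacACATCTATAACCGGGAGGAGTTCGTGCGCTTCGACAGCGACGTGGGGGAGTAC
HLA-DQB1 A_11_P054901: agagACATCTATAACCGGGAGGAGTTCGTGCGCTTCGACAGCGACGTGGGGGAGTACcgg
HLA-DQB1 A_11_P052649: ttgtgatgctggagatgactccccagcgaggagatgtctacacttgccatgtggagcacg

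The comparison of deleted with wild-type tumours asked which of these genes went with loss of DLG2. A gene's value is the log2 intensity of its tested probe with the highest mean, a difference is deleted minus wild type on the log2 scale, and a call needed both an unadjusted p below 0.05 and an adjusted p below 0.1 in limma. None of the 41 genes was called, and over all 32309 tested probes 0% were called by this rule. The adjusted p of the members lay between 0.477 and 0.999. At an unadjusted p below 0.05 stood 3 member genes, IDO1, DLA-79 and PSMB9, all higher in deleted tumours, against 3.66% of all 11115 genes that were higher at that p and 3.93% that were lower. Groups of tumours did not overlap in 2 of the 41 genes, IDO1 and DLA-79, both higher in deleted tumours, against 4.19% of all genes with this order and 3.52% with the opposite one. The median difference was 0.05 over the interferon-induced genes, 0.51 over the class I genes and 0.57 over the class II genes, against 0.01 over all genes. Of the interferon-induced genes 16 were higher and 10 lower, and of the class I genes 6 and 2. All 7 class II genes were higher in the deleted group, without a call. Within the shared slide DLA-DRA and HLA-DRB1 were lower, and within session 1 only CIITA and HLA-DQA1 were higher. In 39 of the 41 genes the spread within the deleted tumours alone, from lowest to highest, was wider than the difference between the groups. The same held in 52 of 55 other genes of the pathway, described below, so it is not particular to the members. The share over all genes was not computed.

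**Figure D1:**
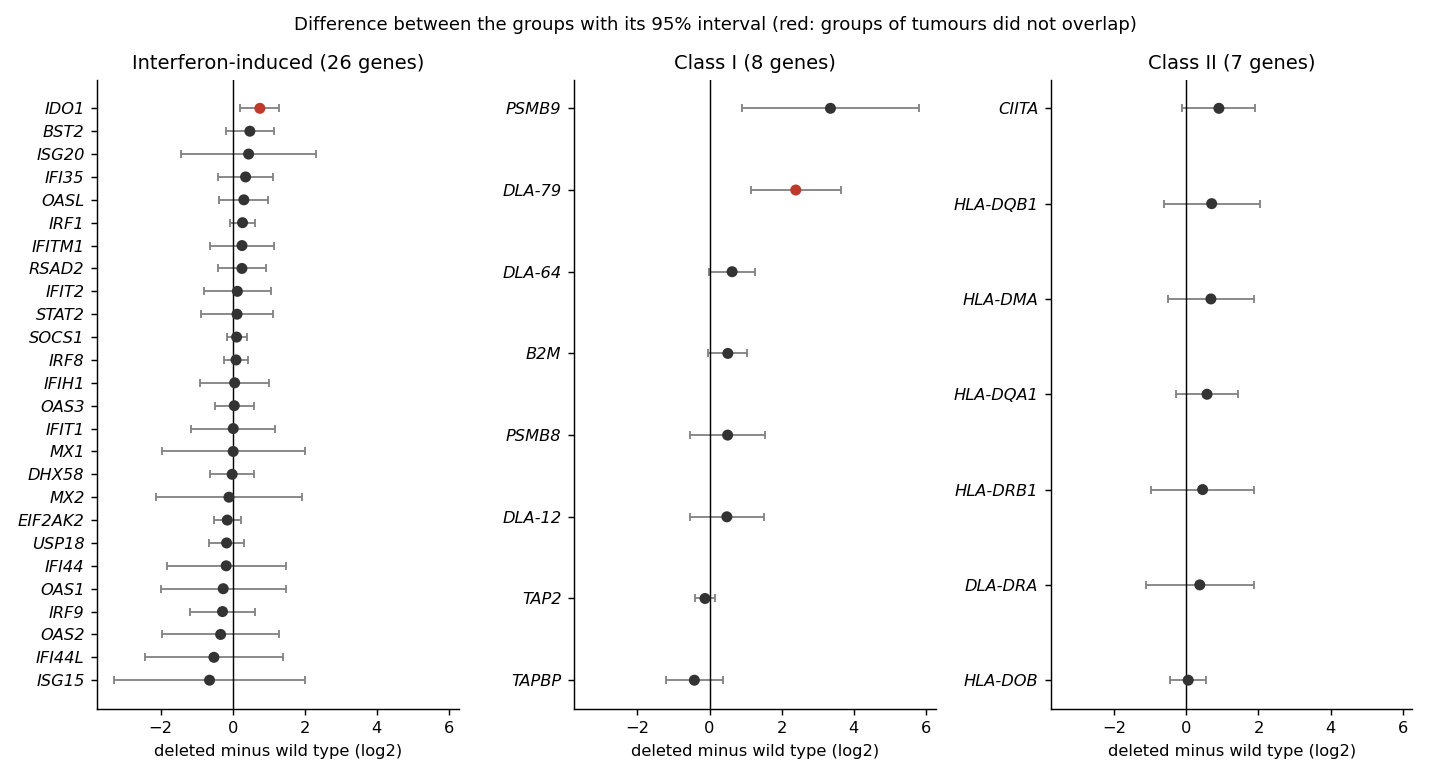
Difference between deleted and wild-type tumours (log2, x axis) for each member gene (y axis), with points for limma's estimate and bars for its 95% interval. All intervals hold 0 except those of IDO1, DLA-79 and PSMB9, and red points mark IDO1 and DLA-79, in which the groups of tumours did not overlap.

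The interferon-induced genes varied widely from tumour to tumour, with high and low tumours in both groups. They ranged over more than 2 on the log2 scale (4-fold) in 9 of 26 genes, against 7.32% of all genes, and the median range over the 7 tumours was 1.51, against 0.80 over all genes. Deleted tumours 2 and 3 and wild-type tumour 2 were the high ones. In these tumours 22, 23 and 19 of the 26 genes lay above their own mean over the 7 tumours, while 6 genes did so in deleted tumour 1, 5 in deleted tumour 4, 9 in wild-type tumour 1 and 4 in wild-type tumour 3. Over all genes this share stayed between 45.9% and 51.5% in every tumour. In 11 of the 26 genes (DHX58, IFI44, IFI44L, IFIT1, ISG15, MX1, MX2, OAS1, OAS2, OAS3 and USP18) the lowest 3 tumours were deleted 1, deleted 4 and wild type 3, an order that was chosen after the values were seen and that 5.06% of all genes had.

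**Figure D2:**
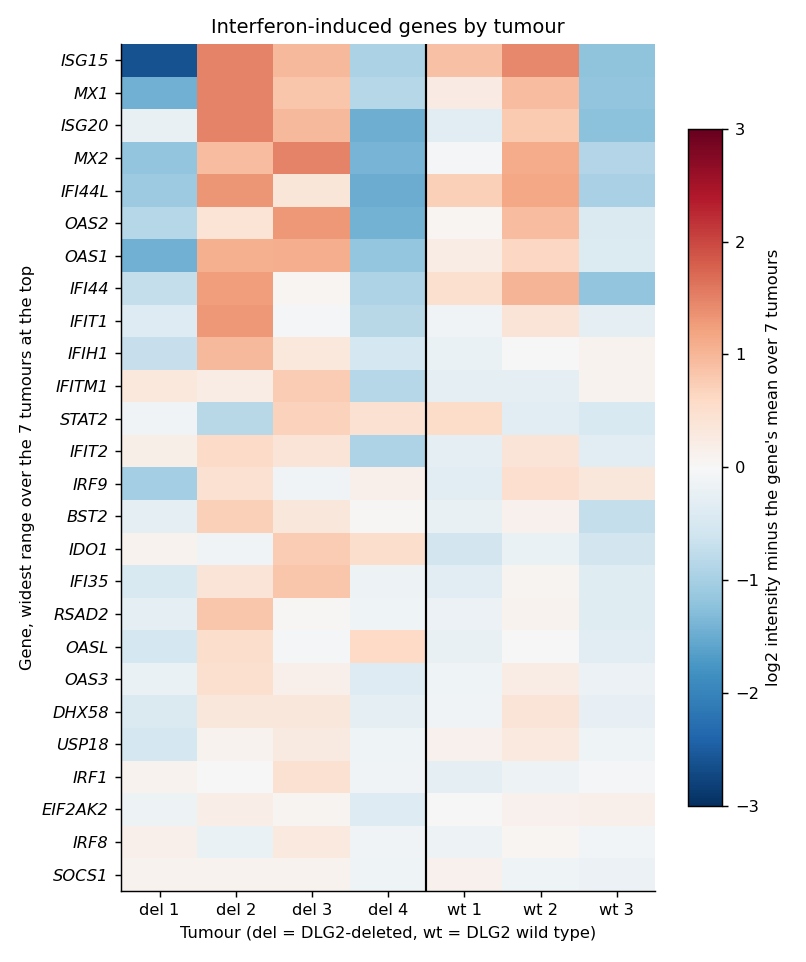
Log2 intensity of 26 interferon-induced genes (rows, widest range at the top) in 7 tumours (columns, a line between the DLG2 groups), as the difference from each gene's mean over the 7 tumours, with red above and blue below it. The upper rows are red in deleted tumours 2 and 3 and wild-type tumour 2 and blue in deleted tumours 1 and 4 and wild-type tumour 3.

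Among the effectors, MX1, a GTPase that blocks viral replication, measured 10.24, 13.18, 12.53 and 10.83 on the log2 scale in deleted tumours 1 to 4, followed by 11.93, 12.61 and 10.50 in wild-type tumours 1 to 3. Values below keep this order. Both groups thus held high and low tumours, 11.69 ± 1.39 (SD, n = 4) against 11.68 ± 1.08 (SD, n = 3), and the difference of 0.01 had a 95% interval of -1.97 to 2.00. The probe printed above gave 7.65, 10.36, 9.63 and 8.27 against 8.98, 9.69 and 8.11, with the same tumours high and low. The related GTPase MX2 stood at 7.63, 9.75, 10.31 and 7.43 in deleted and 8.76, 9.94 and 7.95 in wild-type tumours. Its 2 tested probes differed in sign, at -0.10 and 0.06, both small beside their SE of 0.85 and 0.46. OAS1, which makes the second messenger that starts RNA decay, gave 7.77, 10.27, 10.30 and 8.06 against 9.44, 9.84 and 8.81. Its dimmer probe pointed the other way, at 0.13 against -0.26, again with the same 3 tumours lowest. The exonuclease ISG20 had 8.54, 10.24, 9.72 and 7.31 in deleted and 8.45, 9.56 and 7.52 in wild-type tumours, which placed wild-type tumour 1 among the low ones. BST2, a membrane tether for budding virus, lay at 7.26, 8.24, 7.87 and 7.56 against 7.30, 7.65 and 6.82. Its difference of 0.48 (SE 0.28) had an adjusted p of 0.793 in limma. The other effectors with a value (EIF2AK2, IFIT1, IFIT2, IFITM1, OAS2, OAS3, OASL and RSAD2) differed by -0.33 to 0.31.

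ISG15, a ubiquitin-like protein that is attached to other proteins, had the widest range of the interferon-induced genes, 4.11 on the log2 scale. Its log2 intensity was 10.18, 14.28, 13.78 and 11.85 in deleted and 13.67, 14.23 and 11.58 in wild-type tumours. The deleted group thus held both the highest and the lowest tumour, and the difference of -0.64 (SE 1.12) was smaller than the SD of 1.88 within the 4 deleted tumours. IFI44L gave 9.50, 11.90, 10.95 and 9.11 against 11.30, 11.75 and 9.61. Deleted tumours 1 and 4 and wild-type tumour 3 were lowest, as in ISG15, though not in the same order. The 3 IFI44L probes agreed in sign, between -0.52 and -0.45. IFI44 and IFI35 differed by -0.18 and 0.36.

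IDO1, the enzyme that breaks down tryptophan and that interferon gamma raises strongly, did not follow this pattern. Its log2 intensity was 7.44, 7.22, 8.09 and 7.85 in deleted and 6.78, 7.13 and 6.77 in wild-type tumours. All 4 deleted tumours were above all 3 wild-type tumours, though deleted tumour 2 exceeded wild-type tumour 2 by only a small step. The difference of 0.75 (SE 0.23) was not called (limma adjusted p = 0.569). Over the other settings it ran from 0.47 to 1.97. It was 0.52 within the shared slide, 0.59 and 0.67 within the sessions, and 0.47 with age as a covariate. These signals are low on this array, and with the scanner's processed intensity under 75th percentile scaling the difference was 1.86.

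The regulators among the interferon-induced genes varied less. IRF9, the DNA-binding part of its complex with STAT2, had 3 tested probes that did not tell the same story. The brightest (A_11_P0000025140) stood at 14.72, 16.19, 15.62 and 15.89 in deleted and 15.38, 16.22 and 16.06 in wild-type tumours, with wild-type tumour 3 among the high ones. A second (A_11_P092546) gave 9.40, 10.28, 10.46 and 9.51 against 9.78, 10.19 and 9.26, with deleted tumour 2, deleted tumour 3 and wild-type tumour 2 highest, as in MX1. A_11_P214688 spanned 0.22 over all tumours. The differences of the first and second were -0.28 and 0.17, so the sign for IRF9 depends on the probe. STAT2, IRF1 and IRF8 differed by 0.12, 0.27 and 0.09. The sensors of viral RNA, IFIH1 and DHX58, differed by 0.05 and -0.02, and the inhibitors SOCS1 and USP18 by 0.11 and -0.17.

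The interferon-induced genes as a list had a median deviation from their own means of -0.41, 0.50, 0.35 and -0.38 in the deleted group, and of -0.12, 0.25 and -0.35 in the wild-type group. The 3 highest tumours were those of the shared slide, so that slide and tumour cannot be told apart in these arrays. Within that slide the list's median difference between deleted and wild-type tumours was 0.23, and within the sessions it was -0.18 and -0.20. Macrophage and dendritic cell markers partly moved along. The median deviation of the 7 that were tested of 10 listed was -1.01, 0.15, 1.70 and -0.44 in deleted and -0.21, 0.07 and -0.30 in wild-type tumours. Their summed level ran from 12.71 to 15.29 (log2) in deleted and from 13.36 to 13.77 in wild-type tumours, and all 7 were well above background on every array. The markers did not share an order. The scavenger receptor CD163 stood at 7.76, 10.32, 11.23 and 9.02 against 9.16, 10.90 and 8.25. In CD163 and AIF1 the 3 highest tumours were those of the interferon list. CD68 stood at 9.83, 10.59, 11.64 and 10.53 against 10.92, 10.83 and 12.41, highest in wild-type tumour 3, a low one in that list. CSF1R was also highest there with its brightest probe, and C1QA, C1QC and FLT3 had other orders. The part of macrophages in the interferon pattern was not tested.

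Class I genes showed the 2 largest differences of all members, in DLA-79 and PSMB9, and smaller ones elsewhere. DLA-79, a non-classical class I heavy chain gene that in this build lies on chromosome 18, outside the cluster of the other class I heavy chain genes, had 13.43, 11.07, 12.52 and 12.90 in deleted and 10.07, 10.33 and 9.86 in wild-type tumours (A_11_P0000017134, chr18:44180063-44180122). All deleted tumours were above all wild-type tumours. The wild-type tumours lay close together, 10.09 ± 0.23 (SD, n = 3), and the deleted ones spread more, 12.48 ± 1.01 (SD, n = 4), with deleted tumour 2 lowest. Wild-type tumours 1 and 2 had unusually similar arrays, so n = 3 may overstate the number of separate measurements. The difference was 2.39 (SE 0.53, 95% interval 1.14 to 3.65) and was not called (limma adjusted p = 0.477). The second probe, printed above, lies on another stretch of the gene and gave 9.40, 7.59, 8.61 and 8.88 against 7.23, 7.37 and 7.43, again without overlap and with a difference of 1.28 (SE 0.40). Without each tumour in turn the difference of the first probe stayed between 2.08 and 2.86. It was 1.47 within the shared slide, where deleted tumour 2 is 1 of the 2 deleted tumours, and 1.84 and 3.46 within the sessions.

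PSMB9, a proteasome subunit that interferon gamma brings into the immunoproteasome, had the largest difference, but it rested on 2 tumours. Its log2 intensity (A_11_P050636) was 13.38, 12.83, 13.71 and 13.64 in deleted tumours and 8.30, 8.97 and 12.83 in wild-type tumours. Wild-type tumours 1 and 2 were far below all others, while wild-type tumour 3 stood level with deleted tumour 2. The difference of 3.35 (SE 1.04) was not called (limma adjusted p = 0.580). Without wild-type tumour 1 or 2 it was 2.49 or 2.82, within the shared slide 4.30 and with age as a covariate 1.33. Without wild-type tumour 3 it was 4.75 and was called (limma adjusted p = 0.0359). That fit kept only wild-type tumours 1 and 2, the low pair with unusually similar arrays, as the wild-type group. Whether these arrays are independent was not tested. The second probe gave 13.02, 12.60, 13.41 and 13.28 against 8.03, 8.56 and 12.57, but shares 48 of 60 bases with the first and is no separate measurement of the transcript. PSMB8, the neighbouring subunit of the same particle, did not show the low pair: it gave 9.69, 9.29, 10.73 and 8.92 against 8.71, 9.57 and 9.19.

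The other class I heavy chain genes and the light chain gene differed less. DLA-64 had 16.01, 15.40, 16.35 and 15.71 in deleted and 14.99, 15.67 and 15.06 in wild-type tumours, with wild-type tumour 2 inside the deleted range. Its 3 probes differed by 0.63, 0.66 and 1.19. B2M, the light chain, stood at 16.21, 15.64, 16.40 and 16.31 against 15.36, 15.95 and 15.59, a difference of 0.51 (95% interval -0.03 to 1.05). DLA-12 depended on the probe. Its brightest probe gave 14.56, 13.47, 15.36 and 14.58 against 13.63, 14.44 and 13.96, a difference of 0.48, and another (A_11_P199503) gave 0.38. The probe printed above gave 11.30, 10.24, 12.31 and 10.48 against 11.40, 12.43 and 11.50, a difference of -0.70 (SE 0.53). Class I heavy chain genes differ between dogs and resemble each other, so a 60-base probe need not bind all alleles alike. The part of allele sequence was not tested, and no pair of probes of different members shared a run of 30 bases or more.

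Peptide supply gave no common direction. TAPBP, the chaperone that holds class I at the peptide transporter, had probes of opposite sign. The brighter gave 8.92, 9.86, 9.30 and 9.47 against 10.04, 10.27 and 9.12, a difference of -0.42 (SE 0.33), and the other differed by 0.13 (SE 0.35). TAP2, a subunit of that transporter, was the most even member gene of class I, with a range of 0.40 over the 7 tumours and a difference of -0.13.

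**Figure D3:**
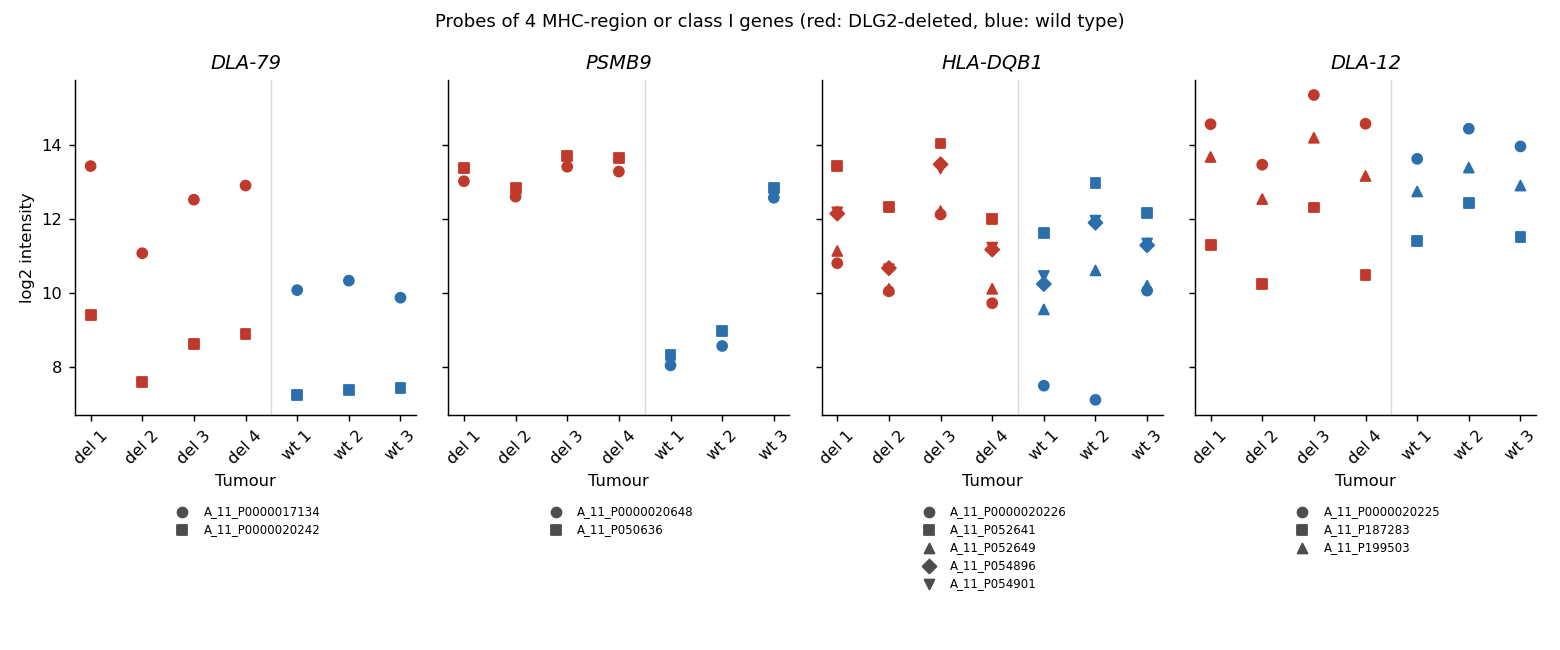
Log2 intensity (y axis) of every tested probe of DLA-79, PSMB9, HLA-DQB1 and DLA-12 in each tumour (x axis), with red points for deleted and blue points for wild-type tumours and a symbol for each probe. Both PSMB9 probes and 1 of 5 HLA-DQB1 probes are far lower in wild-type tumours 1 and 2, and in DLA-79 the groups do not overlap with either probe.

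Class II genes went up and down together over the tumours. All 7 genes lay above their own mean in deleted tumours 1 and 3 and 6 of 7 did in wild-type tumour 2, while 0 did in deleted tumours 2 and 4 and wild-type tumour 1, and 1 did in wild-type tumour 3. Ranges over more than 2 on the log2 scale occurred in 5 of the 7 genes. DLA-DRA, the invariable alpha chain of DR, had 13.59, 12.36, 14.21 and 11.94 in deleted and 12.07, 13.52 and 12.36 in wild-type tumours. Its partner HLA-DRB1 gave 15.64, 13.79, 16.20 and 14.94 against 14.15, 15.45 and 14.48. In both genes deleted tumour 3 was highest, and in HLA-DRB1 deleted tumour 2 was the lowest of all. The differences were 0.37 (SE 0.63) and 0.45 (SE 0.60). Both turned direction within the shared slide, at -0.24 and -0.45, and within session 1, at -0.69 and -0.47. HLA-DMA, which helps to load peptide onto class II, stood at 10.15, 9.17, 11.04 and 9.35 against 8.80, 9.88 and 9.07, a difference of 0.68 (SE 0.50). CIITA, the transactivator of the class II genes, had the largest class II difference, 0.90 (SE 0.42, limma adjusted p = 0.723), from 9.11, 8.47, 9.62 and 8.38 against 7.72, 8.81 and 7.45. It was 0.24 within the shared slide, 0.02 within session 1 and 1.53 within session 2. Its dimmer probes gave 0.20 and 0.03. HLA-DOB, an inhibitor of HLA-DMA found mainly in B cells, differed by 0.05. Within session 1 HLA-DMA, HLA-DOB and HLA-DQB1 were also lower in deleted tumours, at -0.03, -0.04 and -0.17.

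The DQ genes each had a probe that differed from the brightest one of its gene. HLA-DQA1, the alpha chain, had 8.86, 8.54, 9.79 and 8.40 in deleted and 8.01, 8.79 and 8.18 in wild-type tumours. Its second probe was lowest in deleted tumour 2 and wild-type tumours 1 and 2, at 6.89, 6.84 and 6.86, although wild-type tumour 2 was among the 3 highest with the first. HLA-DQB1, the beta chain, had 13.42, 12.33, 14.04 and 12.00 against 11.61, 12.96 and 12.16 with its brightest probe (A_11_P052641). The probe A_11_P0000020226 gave 10.80, 10.04, 12.12 and 9.72 against 7.48, 7.10 and 10.06. Wild-type tumours 1 and 2 were low with this probe, although wild-type tumour 2 was among the 3 highest tumours with the brightest one. The difference was 2.46 with this probe (SE 0.86, limma adjusted p = 0.630) and 0.60 to 0.77 with the other 4.

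The low pair was looked for over the whole array after PSMB9 had been seen. Of 32309 tested probes, 3 were lower by more than 2 on the log2 scale in both wild-type tumours 1 and 2 than in each of the other 5 tumours, and these were the 2 PSMB9 probes and the HLA-DQB1 probe A_11_P0000020226. In the opposite direction there were 7 probes. In the canFam2 build the HLA-DQB1 probe and the PSMB9 probe A_11_P050636 lie on chromosome 12 with 130070 bases between them. On the same chromosome lay 6 of the 8 class I genes and 6 of the 7 class II genes. TAP2 and PSMB8, whose probes lie between these probes, had no such gap. The arrays of wild-type tumours 1 and 2 are also the pair with the highest correlation, and whether that bears on the shared low probes was not tested.

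Markers of other cell types were set beside the members. Of 8 T and NK cell markers tested of 9 listed, 7 were higher in deleted tumours, and in 5 (CD3D, CD3E, CD3G, CD8A and GZMA) the groups did not overlap, against 4.19% of all genes with this order, while none was called (smallest limma adjusted p = 0.117, in GZMA). Their median deviation was 0.34, 0.18, 0.59 and -0.03 in deleted and -0.29, -0.35 and -0.31 in wild-type tumours, and all 8 were well above background on every array. Their summed level overlapped, 11.40 to 12.43 (log2) in deleted and 11.23 to 12.46 in wild-type tumours, and its largest part was NKG7, the marker that was lower in deleted tumours, at 12.20 in wild-type tumour 1. CD3D, a chain of the T cell receptor complex, stood at 10.02, 9.42, 10.02 and 8.61 against 7.48, 7.85 and 7.27. GZMA, a protease of cytotoxic granules, stood at 7.98, 8.09, 8.40 and 8.12 against 6.73, 6.70 and 6.72. Of 5 B and plasma cell markers tested of 6 listed, 4 were higher in deleted tumours, with a median difference of 0.10. The groups did not overlap in MS4A1 and POU2AF1, against 4.19% of all genes with this order. These 2 genes differed by 0.30 and 0.19 and were well above background on only 3 and 4 arrays. Markers of all leukocytes, 3 tested of 5 listed and all well above background, deviated by -0.27, 0.08, 1.02 and -1.11 against -0.42, 0.61 and 0.19, with summed levels of 10.14 to 12.69 and 11.03 to 12.07. Endothelial markers were higher in 4 of 4, with a median difference of 0.55 and summed levels of 12.78 to 14.25 in deleted and 12.32 to 12.97 in wild-type tumours. Adipocyte markers were higher in 5 of 5, and deleted tumour 4 stood apart in them, with a median deviation of 3.12 against -0.61 to -0.28 in the others. Osteoblast markers were lower in 5 of 5 and osteoclast markers in 4 of 5, with median differences of -0.29 and -1.55. None of these markers was called. The part of any of these cell types in the class I, class II and IDO1 values was not tested. The class I list deviated by 0.28, -0.17, 0.91 and 0.20 in deleted and -0.63, 0.09 and -0.33 in wild-type tumours, and the class II list by 0.60, -0.32, 1.25 and -0.29 against -0.80, 0.30 and -0.49. The difference between the groups in the class lists depended on the fit. The class I median was 0.14 within the shared slide and 0.12 with age as a covariate, and the class II median 0.22 and 0.11. Within session 1 these medians were 0.12 and -0.04, and within session 2 they were 0.76 and 1.33.

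**Figure D4:**
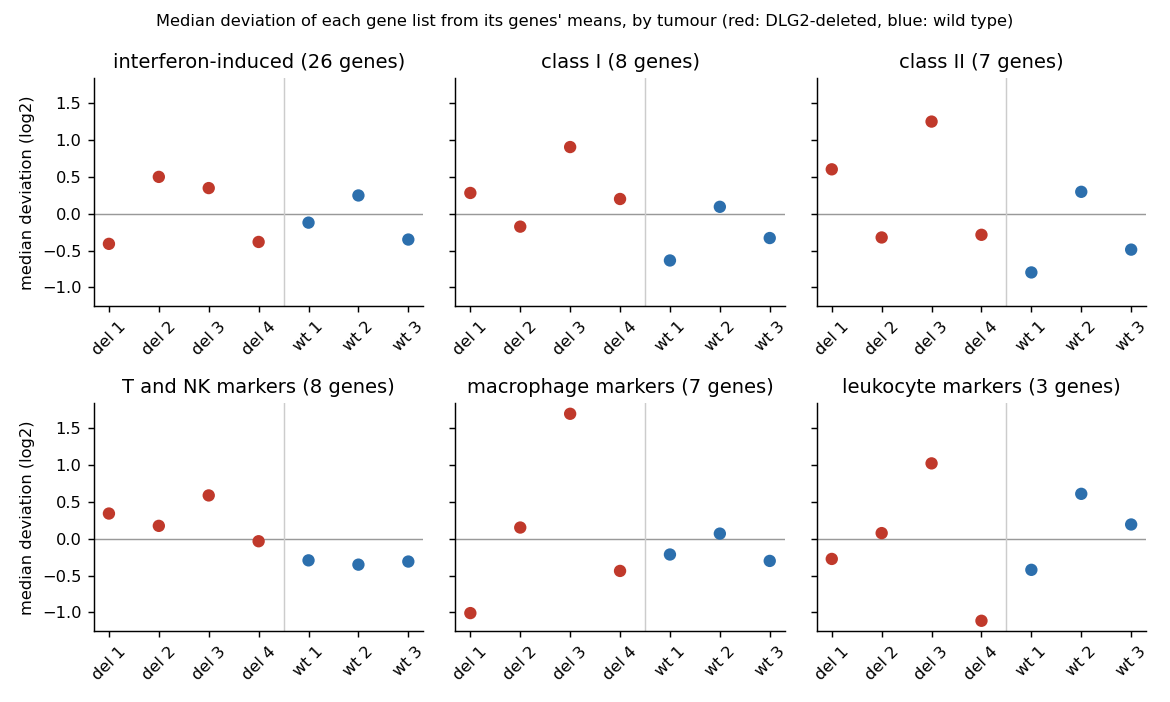
Median deviation (log2, y axis) of the genes of each list from their own means over the 7 tumours, by tumour (x axis), with red points for deleted and blue points for wild-type tumours. The upper row has the member lists and the lower row markers of T and NK cells, macrophages and dendritic cells, and all leukocytes. Class II is highest in deleted tumour 3, at 1.25, where macrophage markers also peak, at 1.70. In deleted tumour 1 class II is next highest, at 0.60, while macrophage markers are at their lowest, at -1.01. T and NK markers are at or above -0.03 in deleted and at or below -0.29 in wild-type tumours.

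Other genes of the pathway were taken from a list of 86, of which 55 had a tested probe. None was called. At an unadjusted p below 0.05 were 4 of 55, all higher in deleted tumours, among them JAK2, CXCL10 and ERAP1, against 7.59% of all genes in either direction and 3.66% higher. The groups did not overlap in 4 (JAK2, ERAP1, GBP5 and SP100), all higher too, against 4.19% of all genes with this order and 3.52% with the opposite one. Their median difference was 0.05, with 34 higher and 21 lower. ERAP1, GBP5 and SP100 are named because the counts are small, after their values were seen. ERAP1, which trims peptides for class I, differed by 0.35 (SE 0.11, limma adjusted p = 0.591), but by 0.12 (SE 0.14) with overlapping groups with its second probe. The guanylate-binding protein gene GBP5 differed by 0.34 and SP100 by 0.22.

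Of 8 listed ligand genes 2 had a tested probe, and neither was called. IFNA7, a type I interferon, lay between 10.00 and 10.72 with a probe well above background on all 7 arrays and differed by -0.25 (SE 0.18), while its other probe was above background on 0 arrays. IFNG, interferon gamma, was well above background on only 3 arrays, and lay between 6.44 and 6.77 in all tumours, at the low end of the array's values. Of the receptor genes 0 of 5 had an unadjusted p below 0.05, a share that this few genes cannot set apart from the 7.59% of all genes. IFNAR2, a chain of the receptor for type I interferon, gave 7.45, 7.71, 7.44 and 7.00 against 6.99, 6.99 and 7.05, a difference of 0.39 (SE 0.17), and IFNGR2 differed by 0.31 (SE 0.38). Among kinases and transcription factors, JAK2, a kinase at the interferon gamma receptor, had 9.17, 9.17, 8.96 and 9.09 against 8.31, 8.63 and 8.65. All deleted tumours were above all wild-type ones, with a difference of 0.57 (SE 0.12, limma adjusted p = 0.457). JAK1, named after its values were seen, depended on the probe. Its brightest probe differed by 0.17 with overlapping groups. Its other probes gave 0.57, 0.52 and 0.27 without overlap, higher in deleted tumours, and 0.30 with overlap. NLRC5, the transactivator of class I, did not occur as a gene name and was not analysed here.

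Of 7 sensors and adaptors 0 reached an unadjusted p below 0.05, and of 17 other induced genes 1 did, again beside 7.59% of all genes. TMEM173, the adaptor STING of cytosolic DNA sensing, differed by -0.37 (SE 0.51), and TLR7 by -0.16 (SE 0.16). The one among the other induced genes was CXCL10, a chemokine that draws T cells. It stood at 10.78, 8.54, 9.48 and 8.00 in deleted and 7.31, 8.12 and 7.15 in wild-type tumours. Wild-type tumour 2 exceeded deleted tumour 4, and the difference was 1.68 (SE 0.66, limma adjusted p = 0.668). Its other probes gave 1.48 and 0.39. With the latter (A_11_P000003319) deleted tumour 4 was highest, at 8.43 against 8.20 in deleted tumour 1. GBP1 gave 8.70, 7.52, 8.35 and 7.10 against 6.87, 7.56 and 7.16, a difference of 0.72 (SE 0.41). With the brightest probes of CXCL10 and GBP1 deleted tumour 1 was highest, a tumour that was among the lowest in MX1 and ISG15.

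The inhibitors split, with PIAS1, a SUMO ligase, at 10.31, 11.50, 10.87 and 11.13 against 11.13, 12.24 and 11.86. Its difference was -0.79 (SE 0.35) with the brightest of its 4 tested probes and -0.28, -0.27 and 0.09 with the others. That of the feedback inhibitor SOCS3 was 0.30 (SE 0.23). In class I loading, the inducible proteasome subunit gene PSMB10 differed by 0.46 (SE 0.33) and the proteasome activator gene PSME1 by 0.38 (SE 0.26). In class II processing, the lysosomal thiol reductase gene IFI30 stood at 11.60, 11.80, 12.87 and 11.51 in deleted and 12.54, 12.66 and 12.90 in wild-type tumours. This made a difference of -0.76 (SE 0.34, limma adjusted p = 0.700). The protease gene CTSS ranged over 3.52 and differed by 0.27 (SE 0.96).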

How the data were processed

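Total RNA of 7 canine osteosarcomas was hybridised to 1-colour Agilent Canine V2 arrays. The deposited files hold spot intensity and local background intensity on a linear scale from Agilent Feature Extraction 10.7.3.1, with gene names, probe sequences and canFam2 positions. The authors' normalised values (multi-array average with a batch correction) were not used here. The members and the lists were chosen with earlier results of these data known.

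The mean spot intensity was corrected by normexp (offset 50) in limma 3.58.1 (R 4.3.3), quantile-normalised and put on the log2 scale. Control spots and 144 outlier values were left out, 0 spots were saturated, and 30280 to 34538 probes were well above background per array. The number of arrays limits the precision. RefSeq names were added to 1845 probes without a symbol, for the counts over all genes. Groups were compared with limma (two-sided, no covariates, Benjamini-Hochberg over 32309 probes). Values were given in every tumour for, in each class, the 4 genes with the largest difference, the 4 with the widest range, and those with separate groups or probes of opposite sign. In each pathway role with 3 or more genes the 2 with the largest difference were named, except that 1 gene is not reported here. The computations were tested on simulated data. Alternatives are in the closing section.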

Additional observations from a re-analysis of the deposited data

Results flagged for a closer look

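Among the 4 deleted tumours, 1 tumour lay apart from the other 3 by Dixon's criterion in 4 of 118 sets of values looked at, and chance flags about 1 in 20 groups. The gap as a share of the group's range was 0.944 in SOCS1, where deleted tumour 4 was lowest, at 7.87 against 8.10 to 8.11. It was 0.932 in LGMN, a lysosomal protease gene, where deleted tumour 3 was highest, at 12.29 against 11.04 to 11.13. For SP100 it was 0.870, with deleted tumour 3 highest, at 7.16 against 6.84 to 6.88. For NKG7, a marker of T and NK cells, it was 0.989, with deleted tumour 2 lowest, at 9.78 against 11.59 to 11.61. The sex label was also fitted as an interaction with DLG2 status in limma. Wild-type tumour 3 was the only wild-type tumour labelled MC. With 1 array in that group the fit cannot decide whether sex matters, and no count is given.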

How the results depend on the processing

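Each result was recomputed under 22 other settings. The number of member genes called was 0 in all of them except without wild-type tumour 3. PSMB9 was called there, so that the range with each tumour left out was 0 to 1. That fit left wild-type tumours 1 and 2, whose arrays were unusually similar, as the wild-type group. No member was called with these 2 averaged and counted as 1 tumour, which was 1 of the settings. The count at an unadjusted p below 0.05 was 3 in the main setting, beside 7.59% of all genes. It was 5 with normexp and 75th percentile scaling, 1 with age as a covariate and 2 to 6 with each tumour left out. The shares of all genes in these settings are not given, so their counts cannot be read against that 7.59%. The class I median stayed between 0.31 and 0.73 with each tumour left out, and the class II median between 0.28 and 0.90. The interferon-induced median ran from -0.12 to 0.19 there, so its sign is not settled, and it was -0.13 with the extraction session as a term. Normexp with 75th percentile scaling moved the median of all genes to 0.23, and relative to it the medians were -0.02 for interferon-induced, 0.07 for class I and 0.27 for class II genes. Over all settings 82 of 898 single gene differences changed sign, 0 of them in DLA-79, PSMB9 or IDO1. No paired analysis was possible because the tumour numbers only name tumours. With 4 against 3 arrays and intervals as wide as those given, differences that were not called are not shown to be absent. Slide as a fixed block compares 2 deleted tumours with 1 wild-type tumour and leaves little to estimate the spread. No count at an unadjusted p is given for it.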
